A study of Mus musculus with 10 samples.

Results

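Annexins and galectins were followed in mouse retinal cells sorted by the scavenger receptor CD36. The members were 10 genes chosen by symbol, the annexins Anxa1 to Anxa7 and the galectins Lgals1, Lgals3 and Lgals9. Of these, 5 were found among the 21869 genes of the count table: Anxa1, Anxa2 and the 3 galectins. The annexins Anxa3, Anxa4, Anxa5, Anxa6 and Anxa7 were not analysed here. All 5 measured members passed the filter on low counts, among 11596 genes tested.

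RNA had been sequenced from 10 libraries, 5 of CD36-positive cells (numbered 1, 2, 3, 4 and 7) and 5 of CD36-negative cells (numbered 1, 2, 4, 7 and 8). Both groups came from mice titled WT and from one gate of live retinal cells, positive for CD11b with an intermediate level of CD45, which the labels call microglia. The treatment protocol describes NaIO3 (sodium iodate, toxic to the retinal pigment epithelium) at 20 mg/kg by vein in PBS, or PBS alone, and collection of eyes after 7 days. Which of these the mice behind the 10 libraries received is not in the labels, nor are age and sex. They also do not say whether the libraries of a group came from separate animals, so p-values measure the spread between these libraries, which may be technical.

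Annexins are cytosolic proteins that bind acidic phospholipids, phosphatidylserine among them, when calcium rises. They gather at damaged plasma membrane, on exocytic vesicles and on dying cells, and annexin A1, when released, quiets inflammation through formyl peptide receptors. Galectins bind galactose-containing sugars. They are secreted without a signal peptide and cross-link glycoproteins on immune cells, and inside the cell they mark lysosomes whose membrane has broken. Galectin-3 is made by microglia that respond to injury and by infiltrating macrophages, and is a known ligand of Trem2 and Mertk.

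The measured members lie on different chromosomes, and GENCODE M21 annotates each as protein coding. On GRCm38, the assembly of build mm10, Anxa1 lies on chromosome 19 from 20373428 to 20390944 (minus strand) and Anxa2 on chromosome 9 from 69453620 to 69491795 (plus strand). Lgals1 lies on chromosome 15 from 78926725 to 78930465 (plus strand) and Lgals3 on chromosome 14 from 47367751 to 47386160 (plus strand). Lgals9 lies on chromosome 11 from 78962974 to 78984946 (minus strand).

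Promoter windows are shown for 3 genes that were lower in CD36-positive cells, the annexins and S100a11, the calcium-binding partner of annexin A1, to let their starts be compared. Each window holds the 250 bases before a start in RefSeq on GRCm38.p6, 5′ to 3′ in the gene's direction. Anxa1 is at chr19:20390672-20390921 (minus strand), Anxa2 at chr9:69453433-69453682 (plus strand) and S100a11 at chr3:93520246-93520495 (plus strand). These RefSeq starts differ from the GENCODE gene bounds given above. The Anxa1 window lies wholly inside the GENCODE gene, as does the Lgals3 window searched below, and the Anxa2 window runs past the GENCODE start. Capitals mark TGANTCA, a site of AP-1 factors, and TATAAA, the TATA box.
Anxa1: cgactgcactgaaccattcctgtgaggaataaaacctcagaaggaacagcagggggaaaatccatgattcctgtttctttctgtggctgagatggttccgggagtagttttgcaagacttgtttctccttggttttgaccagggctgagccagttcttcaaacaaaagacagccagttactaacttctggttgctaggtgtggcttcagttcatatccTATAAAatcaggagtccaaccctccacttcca
Anxa2: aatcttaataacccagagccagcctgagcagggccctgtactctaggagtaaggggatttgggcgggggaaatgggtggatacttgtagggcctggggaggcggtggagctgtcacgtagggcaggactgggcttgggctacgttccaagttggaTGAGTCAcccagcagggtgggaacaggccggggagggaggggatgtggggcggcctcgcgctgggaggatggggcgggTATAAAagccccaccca
S100a11: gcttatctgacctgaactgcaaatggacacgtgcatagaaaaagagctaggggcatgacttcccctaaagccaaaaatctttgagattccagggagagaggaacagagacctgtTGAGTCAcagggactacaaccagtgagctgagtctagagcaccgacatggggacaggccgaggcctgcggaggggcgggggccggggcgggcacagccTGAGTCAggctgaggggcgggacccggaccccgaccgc
The motifs were chosen after the sequences were seen and were searched on both strands. The Anxa1 window held 1 TATA box, whose first base lay 32 bases before the start, and no AP-1 site. The Anxa2 window held an AP-1 site at 95 bases and a TATA box at 17 bases before the start, and S100a11 held AP-1 sites at 136 and at 38 bases. Of 32851 mouse promoter windows of the same length, 6.75% held an AP-1 site and 12.4% a TATA box. The GC box of Sp1 factors (GGGCGG) matched 3 times in Anxa2, 3 times in S100a11, 1 time in Lgals3 and not in Anxa1 or Lgals9. Of all windows 32.7% held it, and none of its matches here overlapped the capitals. A site of the myeloid factor PU.1 (GAGGAAGT) was in none of these 5 windows and in 2.44% of all. Sequences were found for 4 of the 5 measured members, and the windows of Lgals3 and Lgals9 held neither AP-1 site nor TATA box.

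Total counts per library ran from 5001692 to 13250984, and 13531 to 15089 genes had a count above 0. Levels are given as CPM, counts put on a common library size by TMM scaling, and 3 counts in one library corresponded to 0.238 to 0.558 CPM. Such floors cover counting error only, since reads copied by PCR are not independent molecules. CD36-positive libraries 1 and 3 were the shallowest, so values without them are given beside the members. The summed level of 4 Y-linked genes (Ddx3y, Eif2s3y, Kdm5d and Uty) was 184 to 324 CPM in CD36-positive libraries 1, 2 and 3 and CD36-negative libraries 1 and 2, and 18.4 to 57.6 CPM in the other 5, so values within each of these sets are given too. Cd36, which encodes the protein used for the sort, averaged 219 ± 39.9 CPM in the CD36-positive and 50.3 ± 5.51 CPM in the CD36-negative libraries (SD, n = 5 each; log2 fold change 2.12, SE 0.18, edgeR adjusted p = 1.45e-06).

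Both measured annexins fell in CD36-positive cells, Anxa2 by 3.43-fold and Anxa1 by 5.26-fold. The galectins did not pass the test, with lower values of Lgals3 and higher values of Lgals1 and Lgals9. With edgeR's quasi-likelihood test across all genes at a Benjamini-Hochberg adjusted p of 0.05, 0 of 5 members rose and 2 fell. Over all genes tested 2.61% rose and 4.74% fell, 7.36% in either direction. At an unadjusted p under 0.05 the members gave 2 higher and 3 lower, and the DESeq2 Wald test and limma voom each gave 1 higher (Lgals9) and 2 lower. The median log2 fold change of the 5 members was -0.69, against 0.02 over all genes tested.

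**Figure D1:**
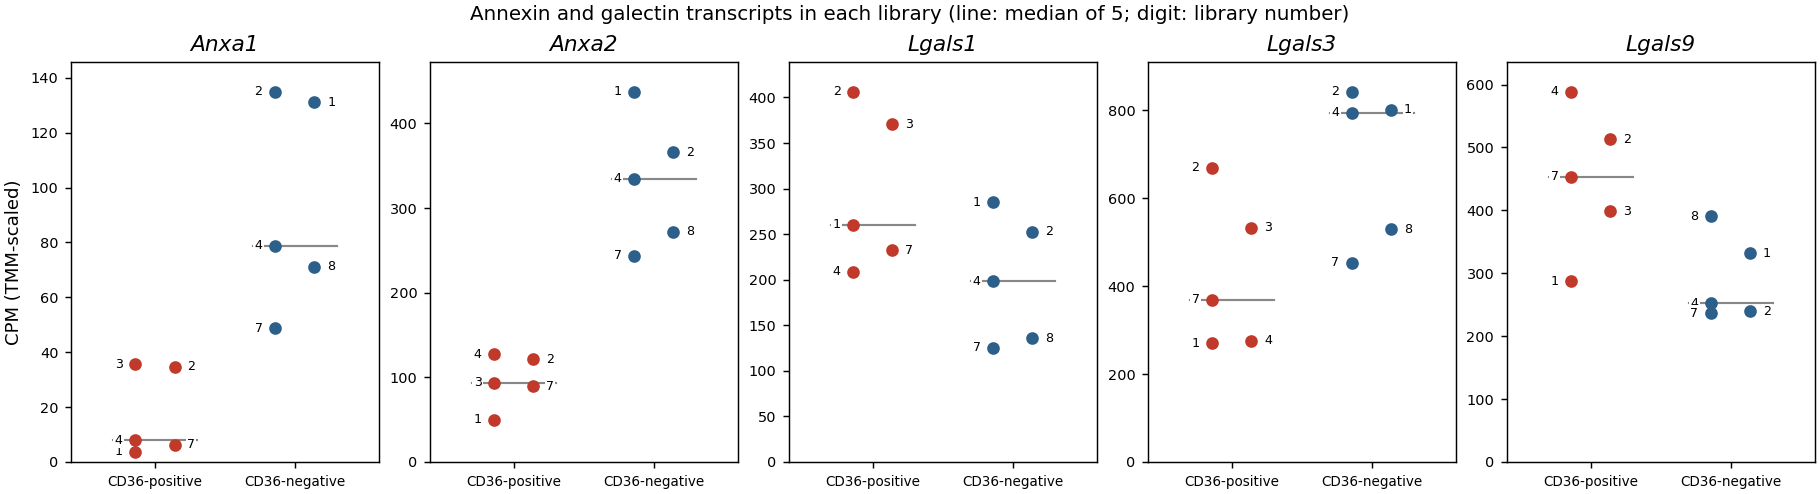
TMM-scaled CPM of the 5 measured members in each library, with CD36-positive left of CD36-negative, digits for the library number and a line for the median of 5. The groups do not overlap for Anxa1 and Anxa2, whereas the 3 galectins overlap.

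Anxa1, whose protein acts as an anti-inflammatory mediator of myeloid cells, was at 3.72, 34.7, 35.7, 7.996 and 6.18 CPM in CD36-positive libraries 1, 2, 3, 4 and 7. In CD36-negative libraries 1, 2, 4, 7 and 8 it was at 131, 135, 78.7, 48.6 and 71.2 CPM. Every CD36-positive library lay below every CD36-negative one, and CD36-positive libraries 2 and 3 stood well above the other 3. The means were 17.6 ± 16.1 and 92.9 ± 38.3 CPM in CD36-positive and CD36-negative libraries (SD, n = 5 each). The log2 fold change was -2.40 (SE 0.52, 95% confidence interval -3.50 to -1.30, edgeR adjusted p = 0.00791), or 5.26-fold lower. Within the CD36-positive group the highest library held 9.59 times the lowest, against 2.77 times among CD36-negative libraries. The counts behind these values were 20 to 307 per library in CD36-positive and 466 to 1529 in CD36-negative libraries.

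Without CD36-positive libraries 1 and 3 the Anxa1 log2 fold change was -2.54 (edgeR adjusted p = 0.00755). It was -2.47 among the 5 libraries of high Y-linked level, where it did not pass (adjusted p = 0.0603), and -3.23 among the 5 of low level, where it passed (adjusted p = 9.81e-06). These fits held 2 or 3 libraries a group. Against a null log2 fold change of 1, Anxa1 did not pass either (adjusted p = 0.083). CD36-positive libraries 2 and 3, the higher ones for Anxa1, also had the highest summed photoreceptor markers of their group (923 and 373 CPM, against 108 to 189 in the other 3). Their T and NK cell markers summed to 15.8 and 10.9 CPM, against 3.16 to 4.73 in the other 3. The part of either in the Anxa1 level was not tested.

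Anxa2, which links membranes to actin and carries S100a10 on its amino terminus, was at 49.7, 121, 93.8, 127 and 89.3 CPM in CD36-positive libraries 1, 2, 3, 4 and 7. In CD36-negative libraries 1, 2, 4, 7 and 8 it was at 437, 366, 335, 244 and 272 CPM. The groups did not overlap, and CD36-positive library 1 was the lowest of all. The means were 96.3 ± 30.8 and 331 ± 76.8 CPM in CD36-positive and CD36-negative libraries (SD, n = 5 each). The log2 fold change was -1.78 (SE 0.24, interval -2.29 to -1.27, edgeR adjusted p = 0.000134), or 3.43-fold lower, which placed Anxa2 at rank 101 by p-value among the 11596 genes. It passed among libraries of high Y-linked level (-2.23, adjusted p = 0.00453), among those of low level (-1.39, adjusted p = 0.000809), without libraries 1 and 3 (-1.57) and against a log2 fold change of 1 (adjusted p = 0.027). Not overlapping, with every CD36-positive library below, was seen for 2 of 5 members and for 5.83% of all genes tested. The opposite, with every CD36-positive library above, was seen for 0 members and for 2.59% of genes.

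The light-chain partners of the annexins fell as well. S100a10, which pairs with annexin A2, was at 16.4, 15.4, 16.2, 8.11 and 11.02 CPM in the CD36-positive libraries, against 99.4, 109, 112, 57.6 and 62.7 CPM in the CD36-negative ones, in the order of their numbers. The highest CD36-positive library was below the lowest CD36-negative one by more than 3-fold (log2 fold change -2.72, SE 0.27, edgeR adjusted p = 5.54e-06). S100a11, the partner of annexin A1, was at 17.9, 26.8, 46.3, 20.6 and 20.7 CPM in CD36-positive libraries, against 240, 233, 207, 128 and 124 CPM in CD36-negative ones. CD36-positive library 3 was the highest of its group and still below every CD36-negative library (log2 fold change -2.82, SE 0.29, adjusted p = 8.19e-06). S100a6, a relative that binds several annexins, averaged 6.99 ± 2.72 and 217 ± 69.8 CPM in CD36-positive and CD36-negative libraries (SD, n = 5 each; log2 fold change -4.93, edgeR adjusted p = 1.73e-07). Ahnak, the giant scaffold that the annexin A2 and S100A10 complex holds at the membrane, averaged 4.44 ± 2.42 and 96.5 ± 36.3 CPM (log2 fold change -4.43, edgeR adjusted p = 1.45e-06).

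Of the 11 annexin partners and receptors listed, 10 were tested, 2 rose, 4 fell and 4 did not pass, with a median log2 fold change of -0.16. The list has members chosen with these data already known, so its count is no independent evidence. The 2 that rose were Pla2g4a, the cytosolic phospholipase A2 that annexin A1 can inhibit, and Rasa1, a Ras GTPase-activating protein that binds annexin A6. Pla2g4a averaged 81.5 ± 2.06 CPM in the CD36-positive and 46.7 ± 13.01 CPM in the CD36-negative libraries (SD, n = 5 each; log2 fold change 0.80, SE 0.21, edgeR adjusted p = 0.0238), and Rasa1 had a log2 fold change of 1.17 (SE 0.27, adjusted p = 0.0126). The Pla2g4a call was lost when CD36-negative library 1, 2, 4 or 8 was left out, and the Rasa1 call without CD36-negative library 4 or without CD36-positive libraries 1 and 3 together (log2 fold change 0.71). The formyl peptide receptor genes did not pass. Fpr1 averaged 19.4 ± 6.01 CPM in the CD36-positive and 19.0 ± 10.97 CPM in the CD36-negative libraries (log2 fold change 0.03, interval -0.75 to 0.80). Fpr2, the main annexin A1 receptor, averaged 8.16 ± 3.804 and 7.90 ± 2.52 CPM in those groups (log2 fold change 0.05, interval -0.90 to 1.00).

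**Figure D2:**
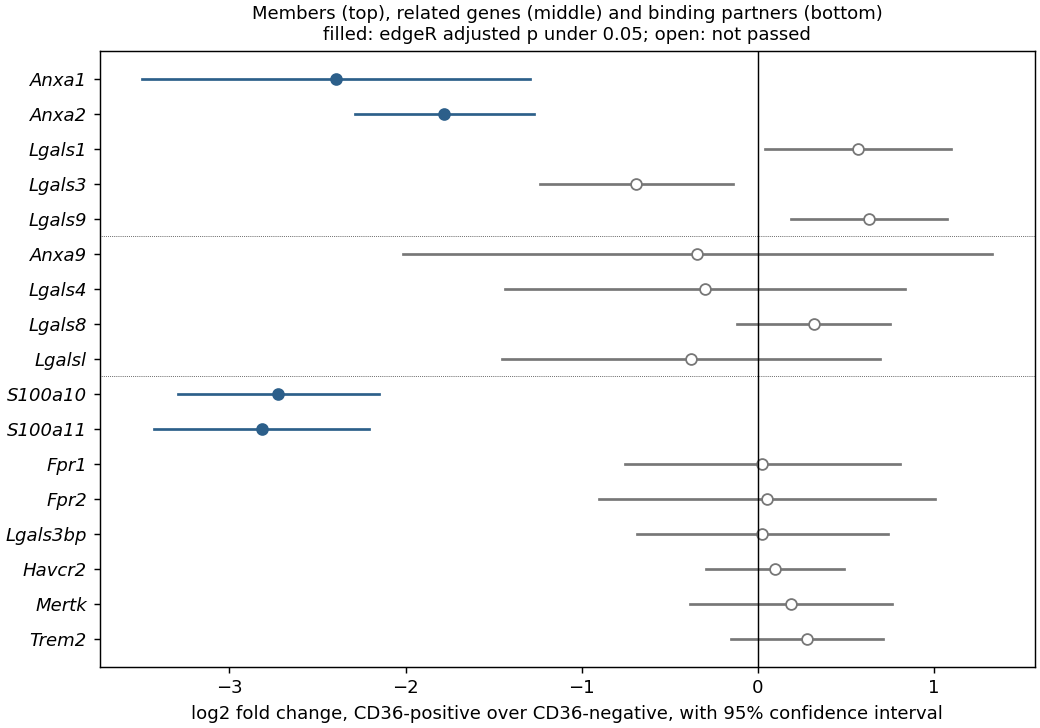
Log2 fold changes, CD36-positive over CD36-negative, with 95% confidence intervals for the members, other annexins and galectins, and binding partners; filled points passed the edgeR test. Anxa1, Anxa2, S100a10 and S100a11 are filled and lie left of 0 with intervals that do not reach it. Open points whose intervals also miss 0 are Lgals3, to the left, and Lgals1 and Lgals9, to the right.

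The fall of the annexins stood beside lower levels of many markers of neutrophils, monocytes, dendritic cells and T and NK cells, but not of B cells. Of the neutrophil markers 7 of 8 tested fell, of monocyte markers 8 of 11, of dendritic cell markers 10 of 11 and of T and NK cell markers 8 of 8. Over all genes tested 4.74% fell. Some markers passed the count filter only through CD36-negative libraries, so they could only be called lower. Among them were Gzmb (7 counts in all CD36-positive and 1677 in all CD36-negative libraries) and Ccl17 (2 and 1467). Neutrophil markers summed to 84.7 to 194 CPM in the CD36-positive and 308 to 851 CPM in the CD36-negative libraries. Csf3r, the tested marker that did not pass, made up most of the CD36-positive sums. It ran from 65.1 to 175 CPM in CD36-positive and from 97.5 to 276 CPM in CD36-negative libraries (log2 fold change -0.53, edgeR adjusted p = 0.302). Retnlg had 0 counts in all CD36-positive and 4123 in all CD36-negative libraries. Ly6g (0 and 13 counts), Ngp (0 and 9) and Camp (21 and 13) were near the floor in both groups. Monocyte markers summed to 515 to 990 CPM in the CD36-positive and 1065 to 1991 CPM in the CD36-negative libraries. Ccr2 and Fn1 together made up most of the CD36-positive sums, and neither passed. Ccr2 averaged 413 ± 174 and 408 ± 64.3 CPM in CD36-positive and CD36-negative libraries (log2 fold change 0.01). Fn1 had a log2 fold change of -0.47, and Vcan, which did not pass either, one of 0.38. Dendritic cell markers summed to 35.8 to 95.4 CPM and 718 to 1087 CPM, and T and NK cell markers to 3.16 to 15.8 CPM and 114 to 456 CPM, in CD36-positive and CD36-negative libraries. A gate on CD11b with intermediate CD45 would leave out most T cells and cells of high CD45. Such cells are known to carry Anxa1, Anxa2 and their S100 partners, and the part of these cells in the annexin results was not tested.

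Markers of the labelled cell type were abundant in both groups. The 11 homeostatic microglia markers, P2ry12 and Tmem119 among them, summed to 8426 to 18447 CPM in the CD36-positive and 7932 to 18919 CPM in the CD36-negative libraries. None of the 11 passed edgeR's test in either direction (1 higher and 1 lower unadjusted, 0 with DESeq2 and 0 with voom). Macrophages of retinal borders were marked by 6 tested genes, of which Pf4 and Ms4a7 rose and the other 4 did not pass, with a median log2 fold change of -0.76. Cd163 (-3.30), Cbr2 (-1.79) and Folr2 (-1.51) were lower at an unadjusted p under 0.05, DESeq2 called 2 of the list lower, and Mrc1 was at -0.01. The list, of which Ms4a7 made up most (799 CPM in CD36-positive libraries), summed to 839 to 1129 CPM in the CD36-positive and 287 to 770 CPM in the CD36-negative libraries. Photoreceptor markers summed to 108 to 923 CPM and 372 to 2289 CPM in those groups, with 2 of 9 tested lower. Among these was Nr2e3, whose call was lost when CD36-negative library 2, 4 or 8 or CD36-positive library 1, 3, 4 or 7 was left out. Of Müller glia and astrocyte markers 1 of 5 tested rose, and of endothelial markers 2 of 3 fell, where 2.61% of all genes rose and 4.74% fell. Cldn5 had 0 counts in all CD36-positive and only 12 in all CD36-negative libraries. Of B cell markers 0 of 2 passed in edgeR, unadjusted edgeR, DESeq2 or voom. In sorted bulk samples, fewer cells of a type and less RNA per cell cannot be told apart.

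**Figure D3:**
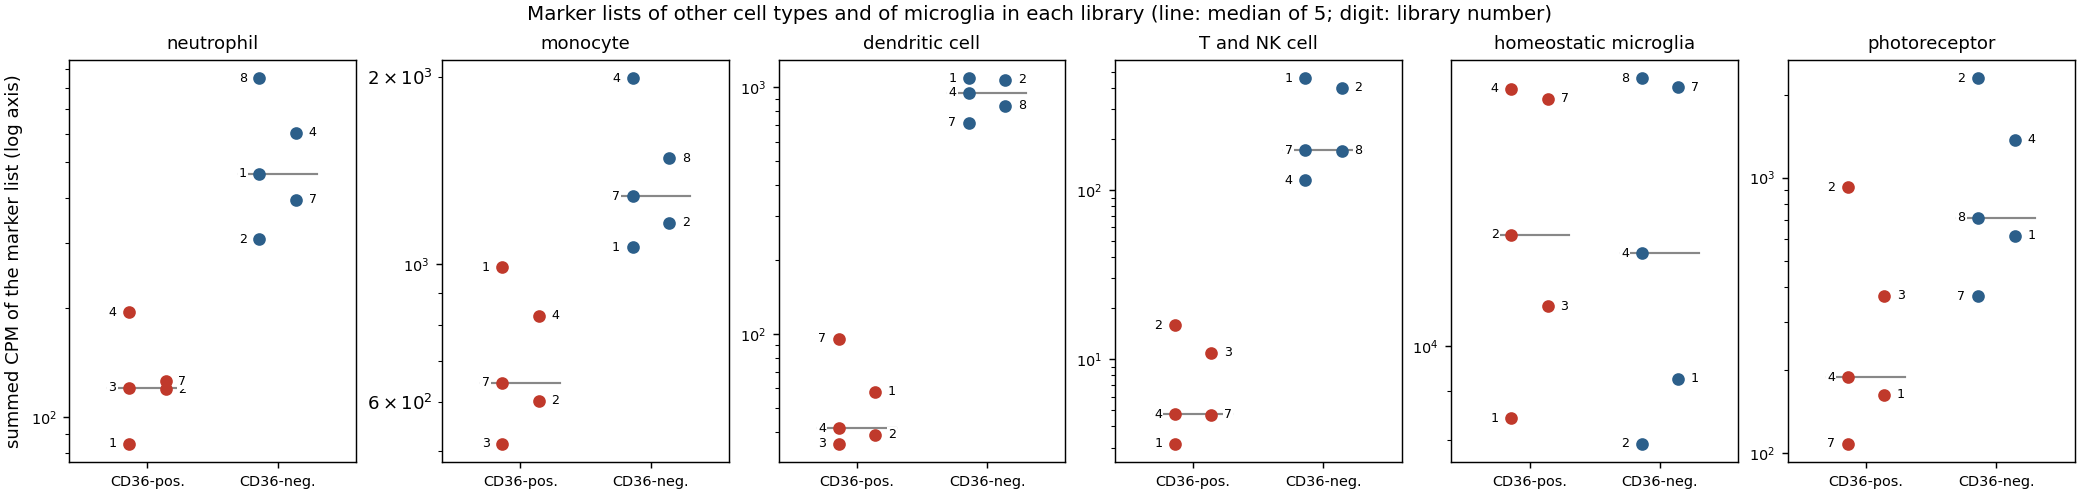
Summed CPM of marker lists in each library on a log axis, CD36-positive left of CD36-negative, with the median of 5 as a line. The neutrophil, monocyte, dendritic cell and T and NK cell sums do not overlap between the groups. The homeostatic microglia sums overlap through most of their range, and the photoreceptor sums overlap in part.

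Lgals3, the chimera-type galectin, was at 270.4, 669.7, 534, 276 and 369.5 CPM in CD36-positive libraries 1, 2, 3, 4 and 7. In CD36-negative libraries 1, 2, 4, 7 and 8 it was at 801, 843, 794, 453 and 529 CPM. CD36-positive libraries 1, 4 and 7 lay below every CD36-negative library, and libraries 2 and 3, also the higher ones for Anxa1, lay within that group's range. The means were 424 ± 174 and 684 ± 179 CPM in CD36-positive and CD36-negative libraries (SD, n = 5 each). Lgals3 did not pass (log2 fold change -0.69, SE 0.26, interval -1.24 to -0.14, edgeR adjusted p = 0.125). Without CD36-positive library 2 it passed, at -0.93 (adjusted p = 0.0345). It also passed among libraries of low Y-linked level (-0.87, adjusted p = 0.0397) but not among those of high level (-0.79, adjusted p = 0.346), nor without libraries 1 and 3 (-0.66, adjusted p = 0.216).

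Lgals9, a tandem-repeat galectin known as a ligand of the receptor Tim-3, was at 287, 513, 399, 589 and 453 CPM in CD36-positive libraries 1, 2, 3, 4 and 7. In CD36-negative libraries 1, 2, 4, 7 and 8 it was at 332, 239, 252, 236 and 390.4 CPM. In CD36-positive libraries 2, 3, 4 and 7 it was above every CD36-negative library, and only library 1 fell inside their range. The means were 448 ± 114 and 290.1 ± 68.2 CPM in CD36-positive and CD36-negative libraries (SD, n = 5 each; log2 fold change 0.63, SE 0.21, interval 0.19 to 1.07, edgeR adjusted p = 0.0835). Without library 1 the log2 fold change was 0.74 (adjusted p = 0.0242), and without libraries 1 and 3 it was 0.83 (adjusted p = 0.0167). With all 10 libraries it passed in DESeq2 (adjusted p = 0.0314), in voom (adjusted p = 0.0247) and with the Y-linked level as covariate (adjusted p = 0.0337), so the call depended on the test as well as on library 1. Within libraries of low Y-linked level it was 0.83 (adjusted p = 0.0373), and within those of high level 0.44 (adjusted p = 0.624).

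Lgals1, a dimeric galectin that can trigger death of activated T cells, was at 261, 406, 370.4, 209 and 232 CPM in CD36-positive libraries 1, 2, 3, 4 and 7. In CD36-negative libraries 1, 2, 4, 7 and 8 it was at 285, 253, 198, 125 and 136 CPM. Only CD36-positive libraries 2 and 3 exceeded the highest CD36-negative library, although all 5 lay above that group's median. The means were 296 ± 87.5 and 199 ± 70.2 CPM in CD36-positive and CD36-negative libraries (SD, n = 5 each; log2 fold change 0.57, SE 0.25, interval 0.04 to 1.10, edgeR adjusted p = 0.197). Lgals1 passed under none of the 26 alternative settings, with log2 fold changes of 0.32 to 0.73. It was 0.32 within libraries of high and 0.53 within libraries of low Y-linked level, and 0.49 without libraries 1 and 3.

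Ratios of 2 members inside one library do not depend on the scaling between libraries, and are given as a description without a test. Lgals1 over Lgals3, counts over counts, was 0.964, 0.607, 0.694, 0.755 and 0.629 in CD36-positive libraries 1, 2, 3, 4 and 7. In CD36-negative libraries 1, 2, 4, 7 and 8 it was 0.356, 0.300, 0.250, 0.277 and 0.256. These galectins, each overlapping between the groups when taken alone, gave a ratio that did not overlap, with every CD36-positive library higher. Anxa2 over Lgals9 ran from 0.173 to 0.237 in CD36-positive and from 0.697 to 1.53 in CD36-negative libraries. Anxa1 over Lgals1 ran from 0.0143 to 0.0963 and from 0.388 to 0.534 in those groups, and Lgals3 over Lgals9 from 0.469 to 1.34 and from 1.36 to 3.52. Of the 10 pairs of members, 7 gave ratios that did not overlap, 6 of them lower in CD36-positive libraries. That direction depends on which gene of a pair is the divisor. Except for Lgals1 over Lgals3 and Lgals3 over Lgals9, these pairs held an annexin, and each annexin taken alone already did not overlap. Among single genes, 8.42% did not overlap, but no share over all pairs of genes was computed, so the count of pairs has no background here. Ratios of members are also not independent of each other. Anxa1 over Anxa2 overlapped, at 0.0629 to 0.380 in CD36-positive and 0.199 to 0.369 in CD36-negative libraries. The ratio of S100a10 to Anxa2 overlapped as well, because CD36-positive library 1 (0.330) lay at the top of the CD36-negative range (0.227 to 0.334), while the other 4 CD36-positive libraries were at 0.0638 to 0.173.

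**Figure D4:**
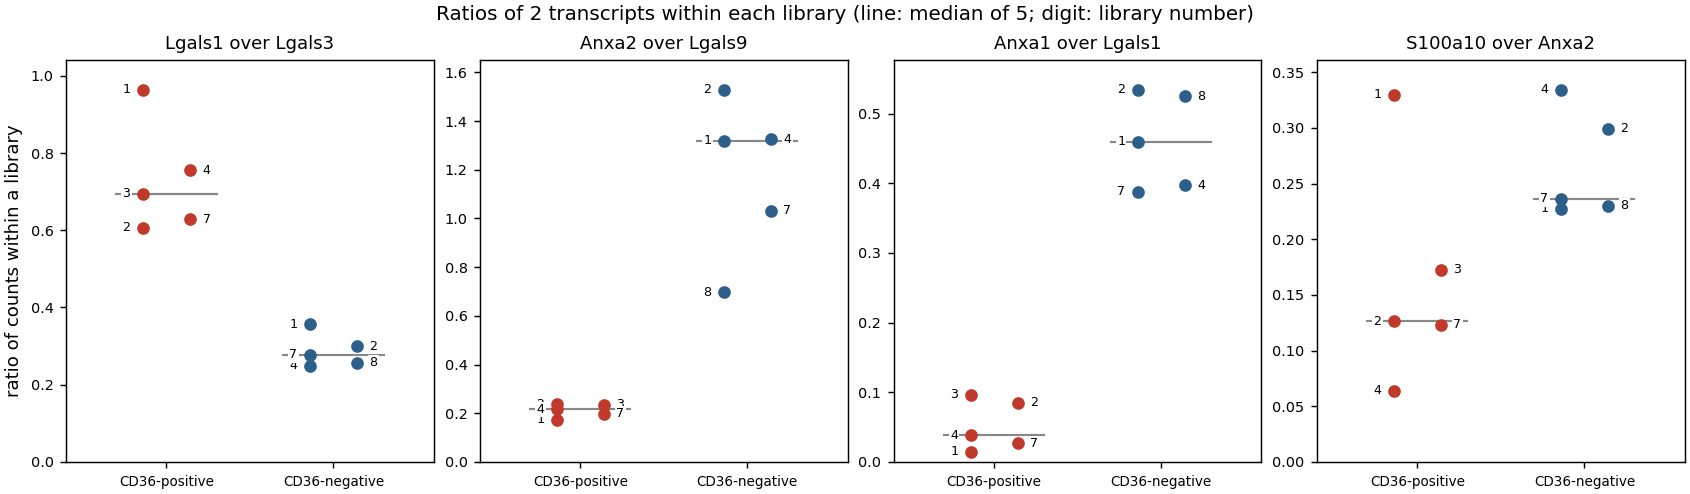
Ratios of the counts of 2 genes within each library, CD36-positive left of CD36-negative, with the median of 5 as a line. Lgals1 over Lgals3 is higher in every CD36-positive library, Anxa2 over Lgals9 and Anxa1 over Lgals1 are lower in every one, and S100a10 over Anxa2 overlaps.

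Levels of different genes were compared per length, as TPM computed from the longest annotated transcript of 11155 genes. In CD36-positive cells the order was Lgals1 (773 ± 218), Lgals3 (617 ± 224), Lgals9 (584 ± 119), Anxa2 (86.9 ± 23.8) and Anxa1 (21.6 ± 19.5 TPM, SD, n = 5). In CD36-negative cells it was Lgals3 (996 ± 228), Lgals1 (515 ± 172), Lgals9 (382 ± 94.7), Anxa2 (301 ± 65.2) and Anxa1 (114 ± 44.4). The ranges of the 3 galectins overlapped in CD36-positive libraries, at 537 to 999.8 for Lgals1, 401 to 901 for Lgals3 and 442 to 765 for Lgals9. Within a library, Lgals1 was above Lgals3 per length in 5 of 5 CD36-positive libraries (ratio 1.076 to 1.71) and in 0 of 5 CD36-negative ones (0.443 to 0.632). Lgals1 was above Lgals9 in 4 of 5 libraries of each group, and Lgals3 above Lgals9 in 3 of 5 CD36-positive and 5 of 5 CD36-negative libraries. In CD36-negative libraries Lgals1 (348 to 749) overlapped Lgals3 (709 to 1186) and Lgals9 (296 to 520.0), while Lgals3 and Lgals9 did not overlap. Anxa1 had the lowest level of the 5 in each group, by a range that did not reach Anxa2 (5.43 to 46.0 against 53.2 to 115 in CD36-positive libraries, and 64.6 to 165 against 238 to 403 in CD36-negative ones). The order of the means was the same with the union of exons as the length. Lgals1 ranked 175 of 11155 genes in CD36-positive and 262 in CD36-negative cells, and Lgals3 ranked 227 and 128.

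Of the 12 galectin partners listed and tested, 0 rose, 1 fell and 11 did not pass, near the 7.36% of all genes called in either direction, and their median log2 fold change was 0.03 (unadjusted, 1 higher and 2 lower). Spn, which encodes the T cell mucin CD43, a counter-receptor of galectin-1, fell (6.13 ± 3.22 CPM in the CD36-positive and 18.0 ± 5.86 CPM in the CD36-negative libraries, SD, n = 5 each; log2 fold change -1.56, SE 0.45, edgeR adjusted p = 0.044). The Spn call was lost when any of CD36-negative libraries 1, 2, 4 and 8 or CD36-positive libraries 2 and 4 was left out (adjusted p = 0.0611 to 0.123). In all, it was lost in 10 of the 25 alternative settings that gave a result for Spn. Havcr2, which encodes Tim-3, averaged 164 ± 9.11 and 153 ± 38.4 CPM in CD36-positive and CD36-negative libraries (log2 fold change 0.10, interval -0.30 to 0.49). For Trem2, the lipid-sensing receptor of microglia, the log2 fold change was 0.28 (interval -0.15 to 0.71), and for Mertk, a receptor for engulfing dying cells, 0.19 (interval -0.39 to 0.76). Lgals3bp, the secreted galectin-3 binding glycoprotein, ran from 291 to 1157 CPM in CD36-positive libraries and from 377 to 1183 CPM in CD36-negative ones (log2 fold change 0.03, interval -0.69 to 0.74). For the 12 glycosyltransferase genes that build or mask galectin ligands, 0 rose and 0 fell with edgeR (median log2 fold change 0.10). Unadjusted, 2 were higher and 2 lower, DESeq2 called 2 and 1, and voom 0 and 1.

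Other members of both families gave no call. Lgals8, a galectin that flags damaged vesicles for autophagy, averaged 83.3 ± 11.7 and 66.8 ± 17.8 CPM in CD36-positive and CD36-negative libraries (SD, n = 5 each; log2 fold change 0.32, interval -0.12 to 0.75, edgeR adjusted p = 0.408). Lgals4 and Lgalsl were tested too, so that of 3 other galectins 0 passed in edgeR, unadjusted edgeR, DESeq2 or voom. Anxa9 averaged 3.08 and 3.92 CPM in CD36-positive and CD36-negative libraries (log2 fold change -0.34, interval -2.02 to 1.33). Anxa10 had 26 counts in all CD36-positive libraries together and 6 in all CD36-negative ones, and Anxa13 had 5 and 0. Lgals2 had 12 and 2 counts, Lgals7 had 0 and 7, and Lgals12 had 1 and 4, in the same order. These 5 genes did not reach the filter, and Anxa8, Anxa11 and Lgals6 were not analysed here.

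Pathways in which annexins and galectins take part were followed next, against 7.36% of all genes called in either direction. Of 12 tested genes of plasma membrane repair (ESCRT subunits, calpains and related genes), 0 rose and 0 fell with edgeR, 1 was higher and 0 lower unadjusted, and DESeq2 and voom called 0. The median log2 fold change was -0.12, and Dysf, the ferlin that meets annexins at membrane tears, had 0 counts in CD36-positive and 2 in CD36-negative libraries. Of 16 genes of the response to damaged lysosomes, where galectin-3 gathers, 1 was higher and 4 lower unadjusted. DESeq2 called 0 higher and 2 lower, and voom called 0. With edgeR's adjusted p 0 rose and 1 fell, with a median of -0.20. The 1 that fell was Optn, an autophagy receptor at a low level (1.92 ± 1.14 and 10.3 ± 6.78 CPM in CD36-positive and CD36-negative libraries; log2 fold change -2.42, SE 0.61, edgeR adjusted p = 0.0202), and its call was lost without CD36-negative library 2 or 8 (adjusted p = 0.0925 and 0.0574). In all, the Optn call was lost in 9 of the 25 alternative settings that gave a result for it. Of 14 tested genes that recognise or expose phosphatidylserine, the lipid annexins bind, 2 rose and 1 fell (median 0.15). Itgav, the integrin chain that takes up Mfge8-coated cells, had a log2 fold change of 0.81 (SE 0.17, edgeR adjusted p = 0.00698) and Stab1, a phosphatidylserine and scavenger receptor, one of 0.61 (SE 0.16, adjusted p = 0.0274). The Stab1 call was lost without any of CD36-negative libraries 2, 7 and 8 or CD36-positive libraries 2 and 4 (adjusted p = 0.054 to 0.0839), and in 12 of 26 alternative settings in all. Cd300a, an inhibitory phosphatidylserine receptor, fell by 0.92 on the log2 scale (SE 0.21, adjusted p = 0.00917).

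Galectin-3 is often listed with the genes of disease-associated microglia, and of 19 others of that program 3 rose and 1 fell (median log2 fold change 0.20), where 2.61% of all genes rose and 4.74% fell. Those that rose were Lilrb4a (1.06, SE 0.18), Lpl (0.97, SE 0.20) and Spp1 (1.596, SE 0.42), and Itgax fell (-0.90, SE 0.26). Spp1 was at 9509 and 9734 CPM in CD36-positive libraries 2 and 3, against 1697 to 2479 CPM in the other 3 CD36-positive and 1255 to 2123 CPM in the CD36-negative libraries. The Spp1 call was lost without CD36-positive library 2 (log2 fold change 1.23) or 3 (1.23), and without any of CD36-negative libraries 1, 4, 7 and 8. The Itgax call was lost without CD36-negative library 1 or 2 or CD36-positive library 3, 4 or 7 (adjusted p = 0.0723 to 0.127). Counting every alternative setting with a result, the Spp1 call was lost in 13 of 26 and the Itgax call in 11 of 25. CD36-positive libraries 2 and 3 were also the highest of their group for Lgals1 and Lgals3, and held its 2 highest Anxa1 levels.

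The genes most like each annexin that passed were found from the root mean square difference of log2 CPM, each gene centred on its own mean over the 10 libraries. Nearest to Anxa2 were Arrdc4, an arrestin-domain gene (difference 0.250), Unc119b, a lipid-binding trafficking gene (0.285), and Cd74, the MHC class II invariant chain (0.298). Over all genes the median difference from Anxa2 was 1.12. The nearest genes lie below such a median by their selection, so it gives a scale and no test. Centring over both groups lets a similar fold change count as likeness. Arrdc4 had a log2 fold change of -1.66 and Unc119b one of -1.49, against -1.78 for Anxa2. Cd74 averaged 2331 ± 898 CPM in the CD36-positive and 8647 ± 3861 CPM in the CD36-negative libraries (SD, n = 5 each; log2 fold change -1.89, SE 0.34, edgeR adjusted p = 0.00184). Nearest to Anxa1 were Pfkp, a phosphofructokinase (0.514), and Gna14, a G protein subunit (0.634), against a median of 1.81. Between Anxa1 and Anxa2 the difference was 0.952, which put Anxa2 at rank 71 in likeness to Anxa1 but Anxa1 at rank 2943 in likeness to Anxa2.

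**Figure D5:**
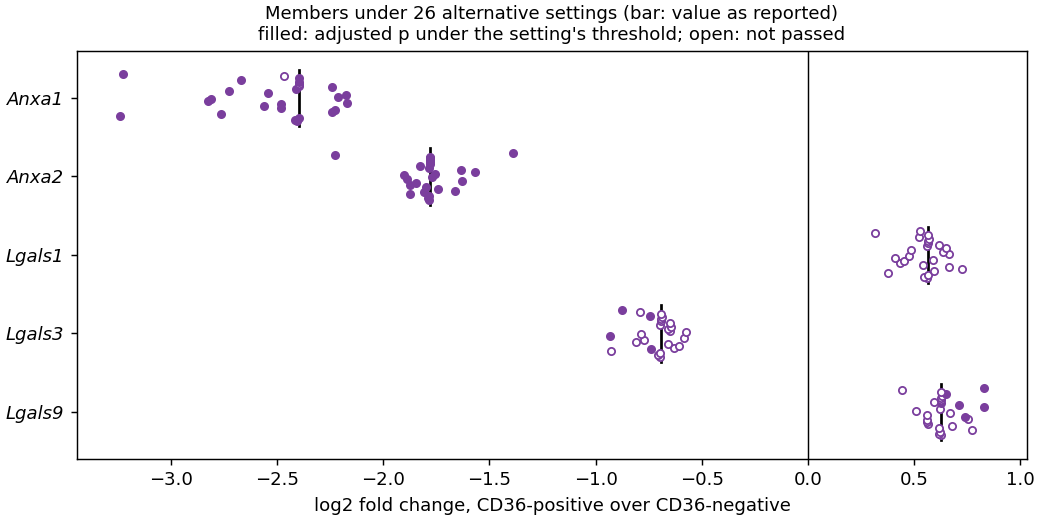
Log2 fold change of each measured member under 26 alternative settings, filled where the setting's threshold was passed, with a bar at the reported value. Anxa2 is filled throughout and Anxa1 in 24, Lgals3 is filled in 4, Lgals9 in 6 and Lgals1 in 0, and no point crosses 0.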

How the data were processed

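Messenger RNA was measured by sequencing in 10 libraries. The authors deposited unnormalized expected counts (estimates that need not be whole; 91.9% were) by gene symbol, 1 column a library. Per the submitters' processing notes, build mm10 was used with HISAT2 2.1.0, StringTie 1.3.1, fastp 0.18.0 and Bowtie2 2.2.8; what each did, the counting program and any use of strand are not given in the sources used here. Of 22008 lines, 8 malformed and 131 repeated ones were dropped, leaving 21869 genes; 2033 were at 0 throughout and 27 symbols had become dates. Of 2 lines for Plin2, the higher kept the symbol. No measured member lay where the table was damaged. Single-cell and spatial data were not analysed here.

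Counts were rounded, filtered with filterByExpr (minimum count 10), TMM-scaled and tested with edgeR 4.0.16 (glmQLFit, glmQLFTest) in R 4.3.3. The design held group alone, and p-values were adjusted by Benjamini-Hochberg over 11596 genes at 0.05. limma 3.58.1 and DESeq2 1.42.0 served as alternatives. The test was checked on simulated data. Replicates were numbered by the description label, and each pair within a group differed by more than counting noise (chi-square over its degrees of freedom 23.3 to 116). Confidence intervals are 95% intervals.

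Members and lists were chosen with earlier results of these data known. Named were the members, Cd36, up to 4 called genes of smallest p per list (not all described), 8 partner genes whatever their p, and the 3 nearest genes of each called member (some results are not reported here); the other annexins and galectins, Rasa1, Pla2g4a, Dysf and the microglia and marker genes named at 0 or as examples were added after their values were seen.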

Additional observations from a re-analysis of the deposited data

Results flagged for a closer look

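Ahnak, the scaffold of the annexin A2 and S100A10 complex, was at 159.6 CPM in CD36-negative library 4, apart from the other 4 libraries of that group, which held 73.7 to 95.4 CPM. Its gap to the nearest library was 0.747 of the group's range, above the 0.71 that marks a library apart among 5. This was the only one among 50 gene and group pairs over 25 genes, and chance marks about 1 in 20. Ahnak remained lower in CD36-positive cells under each of the 26 alternative settings, with log2 fold changes of -4.79 to -4.15.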

How the results depend on the processing

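Across 26 alternatives, Anxa2 passed in all (-2.23 to -1.39) and Anxa1 in 24 (-3.24 to -2.17), Lgals3 in 4 (-0.93 to -0.57), Lgals9 in 6 (0.44 to 0.83) and Lgals1 in 0; no member changed sign. Members higher numbered 1 in place of 0 (Lgals9 each time) with DESeq2, voom, the Y-linked level as covariate, without CD36-positive libraries 1 and 3 and within libraries of low Y-linked level, and 0 to 1 with one library left out. Members lower numbered 1 in place of 2 against a log2 fold change of 1 and within libraries of high Y-linked level, and 2 to 3 with one library left out (3 without CD36-positive library 2). Over all genes, 303 higher became 184 with the description number as replicate block, 188 without CD36-positive libraries 1 and 3, 533 with DESeq2, 90 at an adjusted p of 0.01, 6 against a log2 fold change of 1, 33 and 137 within high and low Y-linked libraries, and 132 to 380 with one library left out. The 550 lower became 330 at 0.01, 214 against a log2 fold change of 1, 215 within high Y-linked libraries, and 422 to 583 with one left out. The causes were not tested.

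With the replicate block by title number, Lgals3 passed (adjusted p = 0.0327) and Fpr2 was at -0.027. Same-numbered libraries correlated at 0.0288 to 0.133 by description and 1 of 4 pairs was closest to its own number. By title number they correlated at -0.0215 to 0.133, and the pairs numbered 2 and 5 were closest to their own number. With correlations this low, numbers were not taken as pairs. The Y-linked level did match by description number, high in both groups for 1 and 2 and low in both for 4 and 7. Whether same-numbered libraries came from the same mice is not in the labels, so pairing remains possible. The block by description number is among the 26 alternatives. Genes without a call that changed sign were Fpr1 (-0.11 with detected genes as covariate, -0.091 within low Y-linked libraries, -0.16 to 0.40 leaving one out), Fpr2 (-0.25 within low Y-linked libraries, -0.22 to 0.23), Mertk (-0.014 without CD36-positive libraries 1 and 3, -0.25 within low Y-linked libraries), Havcr2 (-0.046 to 0.22) and Lgals3bp (-0.19 with detected genes, -0.18 to 0.25). The Y-linked alternatives and the robust prior were added after seeing the data. CD36-positive library 1 held 20 counts of Anxa1.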
